A study of Rattus norvegicus with 20 samples.

Results

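The proteasome is the large protease that degrades ubiquitin-tagged proteins, and the genes of its subunits, activators, inhibitor and assembly factors were followed here in the supraoptic nucleus (SON) of the rat. A gene was taken as a member when its symbol began with Psm, then a letter from a to g, then a digit, and when its mean normalized count was at least 10. Such a symbol was carried by 51 of the 32402 genes in the deposited data, and 48 of them reached the minimum in all 3 tables. These were 7 alpha and 7 beta subunits of the 20S core, 3 inducible beta subunits, 6 ATPases, 3 further base subunits and 8 lid subunits of the 19S particle, 4 activators, 1 inhibitor and 7 assembly factors. The other 2, Psmc3ip and Psme3ip1, carry the name but encode no proteasome subunit, so 46 genes were proteasome genes proper. The 3 symbols under the minimum were Psma8, Psmb11 and Psme1-ps1.

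The SON holds the magnocellular neurones that make vasopressin and oxytocin, whose synthesis and secretion increase when an animal is dehydrated. Bulk poly(A) RNA was sequenced from bilateral SON punches of 20 male Wistar Han rats, 5 in each of 4 groups: adult euhydrated (EH) and adult dehydrated (DH) rats of 3 months, and aged EH and aged DH rats of 18 months. EH rats drank freely and DH rats had no water, for 2 days by the labels and for a longer period by the study's methods. Each library was 1 rat. By the study's methods, adult and aged rats were handled side by side and their RNA was sequenced together, and no label names a batch. Elsewhere the study describes the adult data as sequenced and published earlier. Reads assigned to genes ranged from 24268398 to 30348118 per library, and Pearson's r of log2 values between libraries from 0.9922 to 0.9947. Avp and Oxt, which mark the magnocellular neurones, summed to between 193899 and 473621 normalized counts in every library. In punches of whole tissue, fewer cells of a type and less RNA per cell cannot be told apart.

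In the 20S core, rings of alpha subunits gate a chamber lined by rings of beta subunits, of which Psmb5, Psmb6 and Psmb7 encode the catalytic ones. The 19S particle caps the core: its ATPase ring unfolds the substrate and its lid removes the ubiquitin chain. Interferon induces Psmb8, Psmb9 and Psmb10, which take the places of Psmb5, Psmb6 and Psmb7 and form the immunoproteasome, and the 11S activator made from Psme1 and Psme2. When proteasome activity falls short, the transcription factor NRF1, encoded by Nfe2l1, raises the subunit genes through antioxidant response elements in their promoters.

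Promoter sequences were available for 44 of the 48 genes, from RefSeq on the rat assembly GRCr8. They are shown for 5 genes as examples: 2 catalytic subunits that rose in aged DH rats, an inducible subunit, and both genes of the 11S activator. Of these, Psmb10 and Psme2 passed in no comparison. Each line holds the 100 bases before the start of transcription, 5′ to 3′ on the strand of the gene, and capitals mark a match to TGACNNNGC (a core of the antioxidant response element) or to GAAA, any 2 bases and GAAA (a core of the interferon-stimulated response element, ISRE).
Psmb5, chr15:32047380-32047479, minus strand: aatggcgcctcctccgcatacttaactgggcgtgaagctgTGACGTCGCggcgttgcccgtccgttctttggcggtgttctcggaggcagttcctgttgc
Psmb6, chr10:55737788-55737887, plus strand: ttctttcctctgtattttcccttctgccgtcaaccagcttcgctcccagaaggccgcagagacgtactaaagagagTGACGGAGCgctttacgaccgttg
Psmb10, chr19:50743293-50743392, minus strand: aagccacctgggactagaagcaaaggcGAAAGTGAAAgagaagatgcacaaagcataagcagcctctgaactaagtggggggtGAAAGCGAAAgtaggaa
Psme2, chr15:33052752-33052851, minus strand: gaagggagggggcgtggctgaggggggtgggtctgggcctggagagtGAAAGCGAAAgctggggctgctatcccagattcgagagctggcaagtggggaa
Psme1, chr15:33038871-33038970, plus strand: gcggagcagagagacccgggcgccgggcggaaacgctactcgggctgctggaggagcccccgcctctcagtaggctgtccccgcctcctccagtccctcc

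Psmb5 and Psmb6 each held 1 match to TGACNNNGC, starting 60 and 24 bases before the start. Psmb10 held 2 matches to the ISRE core and Psme2 held 1, while the window printed for Psme1 held neither motif. Over 250 bases before the start and on both strands, TGACNNNGC was found in 7 of the 44 promoters (15.9%), against 11.4% of 19005 protein-coding genes. Of the 16 matched genes that rose in either DH comparison 3 held it (18.8%), and of the 28 others 4 did (14.3%). The ISRE core was found in 5 of 44 (11.4%), against 3.49% of all, and in 2 of the 5 genes that encode inducible subunits or the 11S activator. Psmb8 and Psmb9 held none. Of the 16 genes that rose 2 held the ISRE core (12.5%), and of the 28 others 3 did (10.7%). The CCAAT box, a general promoter element, was found in 22 of 44 (50.0%) against 36.9% of all, in 4 of the 16 genes that rose (25.0%) and in 18 of the 28 others (64.3%). TTCNNNGAA, the interferon gamma activated site, was found in 4 of 44 (9.09%) against 7.76%. These letter matches are a description and carry no test.

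As a set, the RNAs of the constitutive subunits were higher in DH than in EH rats at both ages, by small amounts. This is a description, since the set itself was not tested. All 31 constitutive genes of the 20S core and 19S particle had a log2 fold change (LFC) above 0 in adult DH against adult EH rats (range 0.01 to 0.20, median 0.08), as 47.8% of all genes did, and again in aged DH against aged EH rats (range 0.02 to 0.26, median 0.13), as 49% of all genes did. The 2 comparisons share no rat. Scaled to equal library totals, 29 of the 31 were above 0 in adult and 30 in aged rats. Their mean log2 difference from the EH mean was 0.063, 0.085, 0.143, 0.056 and 0.114 in the 5 adult DH rats, and lay between -0.0071 and 0.0096 in the adult EH rats. In aged DH rats it was 0.096, 0.148, 0.150, 0.156 and 0.110, against -0.0065, 0.022, 0.052, -0.022 and -0.045 in aged EH rats. Every DH rat lay above every EH rat of its age. In aged EH against adult EH rats the same genes were split, 16 of 31 above 0 with a median LFC of 0.0008, where 50.1% of all genes were above 0; the count was 6 of 31 (median -0.029) with equal library totals and 21 of 31 (median 0.016) with median centring.

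**Figure D1:**
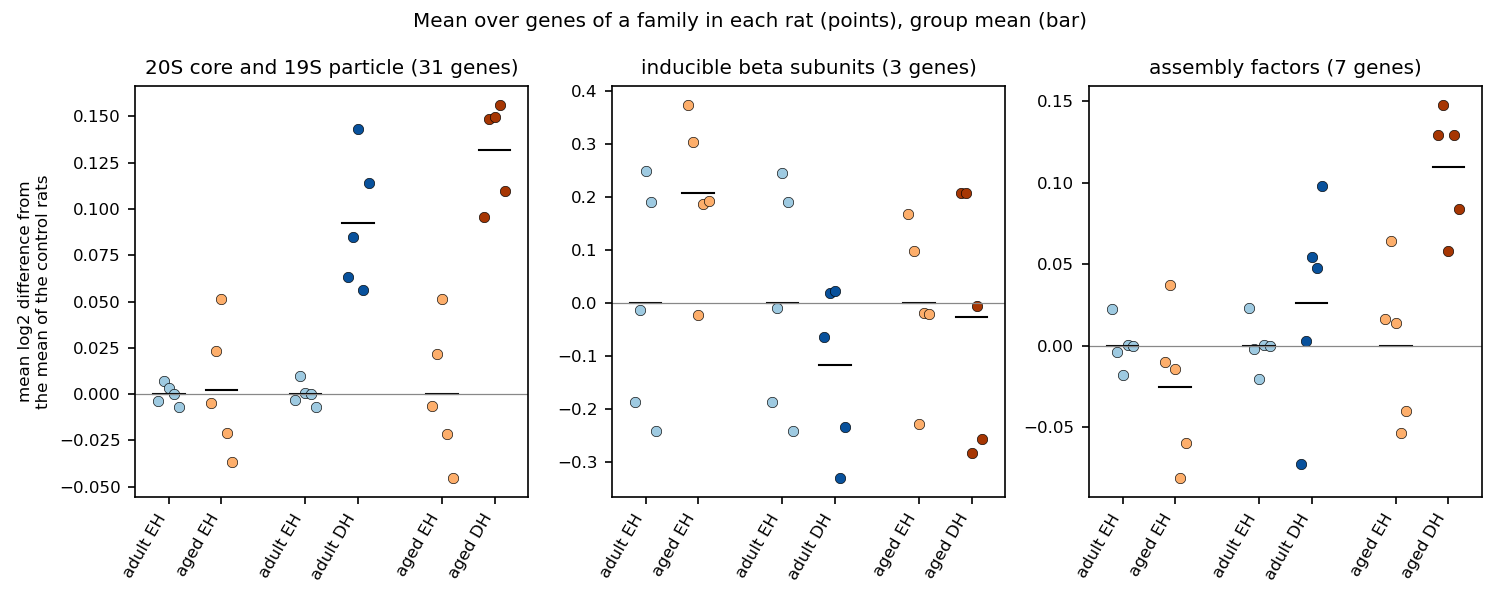
Mean log2 difference from the mean of the control rats (y axis) for 3 families of genes, 1 point per rat and a bar at the group mean; each panel holds adult EH and aged EH (ageing table), adult EH and adult DH, and aged EH and aged DH. For the 31 constitutive subunits all DH rats lie above the EH rats of their age, while the points of the 3 inducible subunits overlap in every pair.

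In adult rats 11 of the 48 genes (22.9%) rose with DH and none fell (limma, adjusted P under 0.05). Of all 15280 genes tested 12.7% were called, 7.67% as higher and 4.99% as lower. Higher calls were 60.6% of those, and 43.4% with equal library totals. The median LFC of the 48 genes was 0.063 and that of all genes -0.0073. In 14 of the 48 all DH rats exceeded all EH rats, as 6.81% of all genes did. None of the 48 was called lower, and 22 of the 48 (26.9% of all genes) had an unadjusted p under 0.05.

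The ATPases held the largest share of calls in adult rats, 4 of 6: Psmc2, Psmc3, Psmc4 and Psmc6. Psmc4 read 2564, 2589, 2624, 2475 and 2632 normalized counts in the adult DH rats, and 2170.0, 2303, 2333, 2241 and 2247 in the adult EH rats. The lowest DH rat was above the highest EH rat, and the LFC was 0.19 ± 0.03 (SE, n = 5 against 5, Padj = 0.0012). For Psmc3 the adult DH rats read 3590.0, 3690, 3977, 3673 and 3711, and the EH rats 3501, 3292, 3258, 3378 and 3364, an LFC of 0.15 ± 0.03 (Padj = 0.0094). Psmc2 (LFC 0.13, Padj = 0.011) and Psmc6 (LFC 0.11, Padj = 0.014) rose without overlap as well. Psmc5 did not pass (LFC 0.06, Padj = 0.096), though its 5 DH values, 6313 to 6591, were all above the EH values, 6105 to 6306.

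Among lid genes, 3 of 8 rose in adult DH rats. Psmd8, a small lid subunit, read 2418, 2574, 2744, 2441 and 2644 in adult DH rats and 2311, 2092, 2229, 2311 and 2182 in adult EH rats. That was the largest LFC of the 48 genes in this comparison, 0.20 ± 0.04 (Padj = 0.0061). Psmd3 (LFC 0.14, Padj = 0.011) and Psmd6 (LFC 0.15, Padj = 0.011) also rose, and Psmd14, which encodes the lid's deubiquitinase, did not pass (LFC 0.04, Padj = 0.621). In the base, Psmd1, a scaffold subunit, rose (LFC 0.10, Padj = 0.028), while Psmd2 and the ubiquitin receptor Psmd4 did not pass (LFC 0.07 and 0.08).

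The 20S core held 1 call in each ring in adult rats. Psma4 rose from 3096 ± 139 to 3409 ± 112 (SD, n = 5; LFC 0.14, Padj = 0.023). Psmb3 read 1813, 1802, 1812, 1849 and 1903 in DH rats against 1699, 1731, 1737, 1688 and 1558 in EH rats (LFC 0.13, Padj = 0.036). None of the catalytic genes Psmb5, Psmb6 and Psmb7 passed in adult rats, and Psmb6 had the highest LFC of the 3, 0.16 ± 0.05 (Padj = 0.056). Of the assembly factors 1 of 7 rose, Psmd5, a chaperone of the ATPase ring (1132 ± 23 against 1029 ± 49, LFC 0.14, Padj = 0.036).

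Of the 11 adult calls 7 held whichever rat was left out (Psmc2, Psmc3, Psmc4, Psmc6, Psmd3, Psmd6 and Psmd8). With equal library totals 6 were called, where 5.82% of all genes were called higher. With the RNA integrity number of each library as a covariate Psmc4 alone was called, where 4.63% of all genes were called higher. All calls fell from 1934 to 1005 with that covariate. By the study's own list the RNA integrity number was the same in all adult EH rats and equal or lower in adult DH rats. RNA integrity and DH thus cannot be fully told apart in adult rats.

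**Figure D2:**
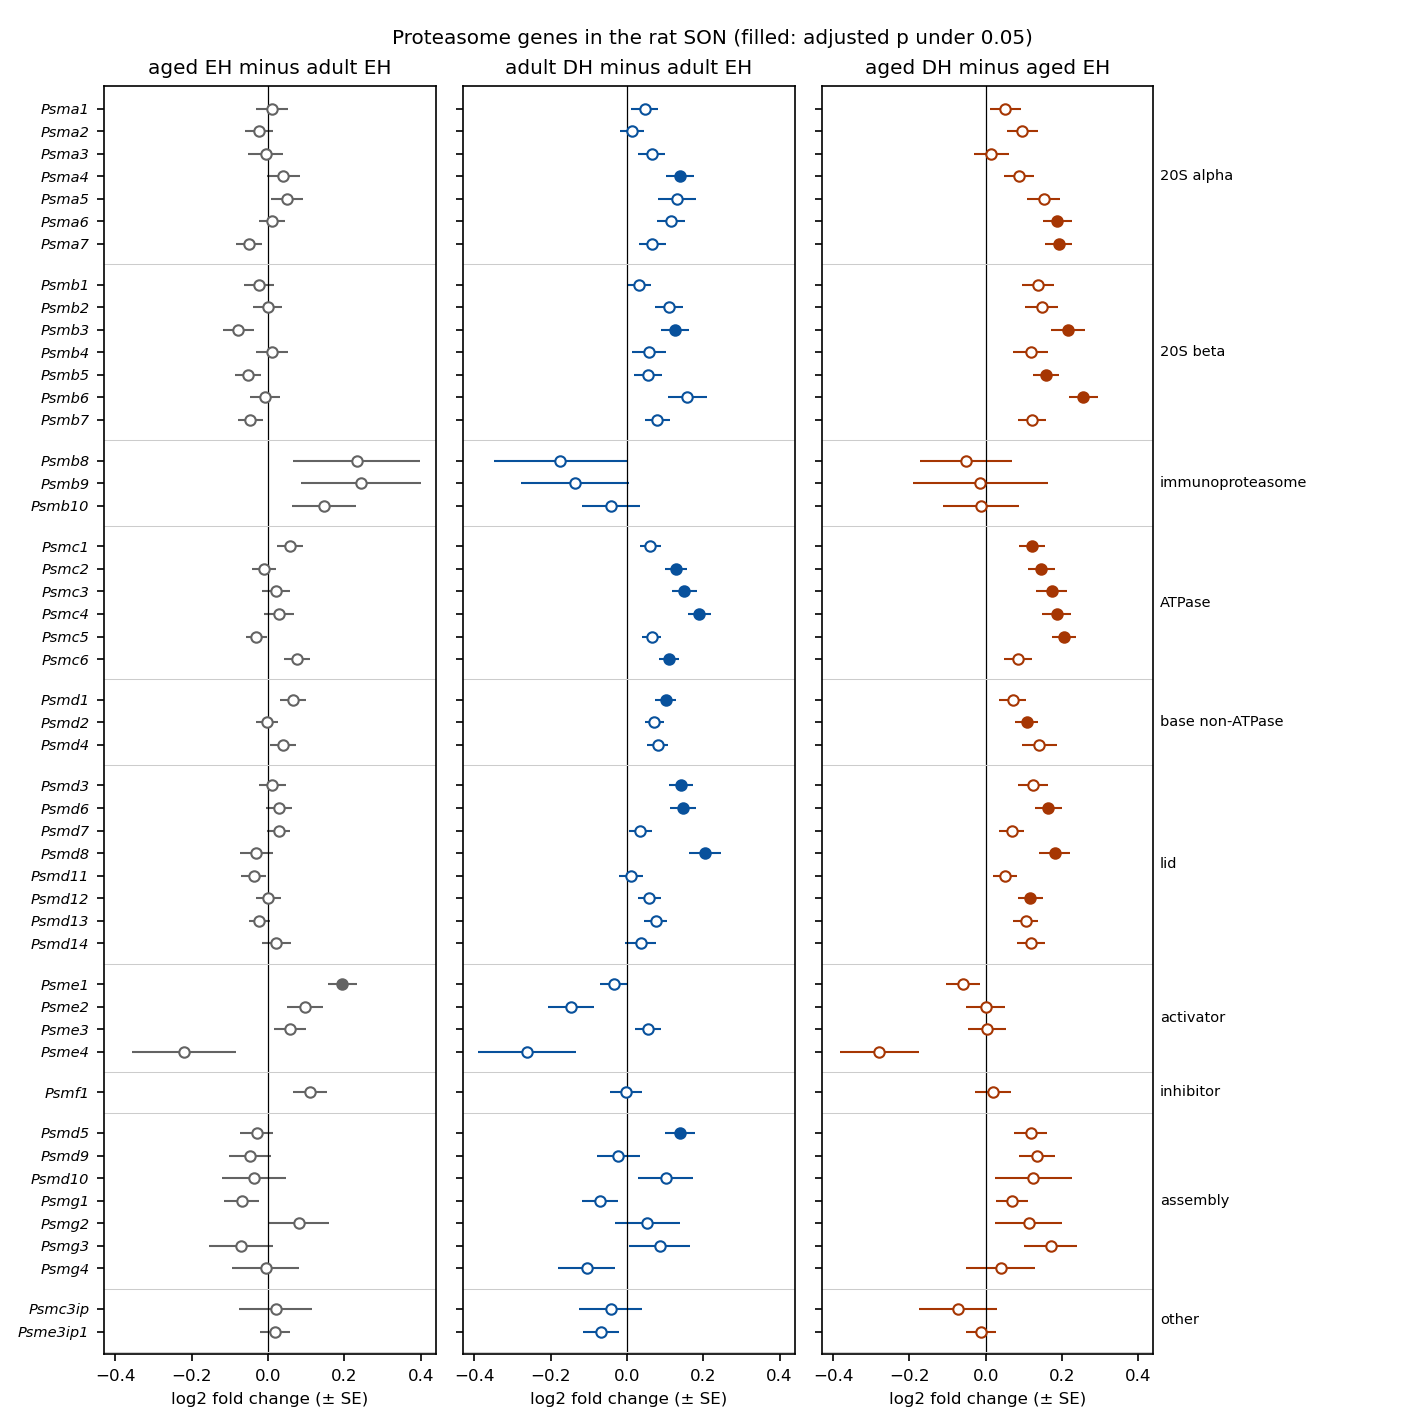
Log2 fold change ± SE (x axis) of the 48 genes, listed by class (y axis), for aged EH minus adult EH, adult DH minus adult EH and aged DH minus aged EH; filled points passed an adjusted P of 0.05. The filled points number 1, 11 and 14, all to the right of 0, and in both DH panels all points of the 20S alpha, 20S beta, ATPase, base and lid classes lie to the right of 0.

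In aged rats 14 of the 48 genes (29.2%) rose with DH and none fell. Of the 15346 genes tested 7.29% were called, 4.05% as higher and 3.25% as lower. The median LFC of the 48 genes was 0.117, against -0.0030 for all genes. In 20 of the 48 all aged DH rats exceeded all aged EH rats, against 4.12% of all genes, and 30 of the 48 (21.4% of all genes) had an unadjusted p under 0.05.

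All 14 calls in aged rats were constitutive subunits. The beta ring supplied 3 of 7, among them 2 catalytic subunits. Psmb6, the caspase-like site, read 3157, 3454, 3325, 3312 and 3248 in aged DH rats and 2674, 2755, 2921, 2850 and 2619 in aged EH rats. The groups did not overlap, and its LFC of 0.26 ± 0.04 was the largest of the 48 genes (Padj = 0.0017). Psmb5, the chymotrypsin-like site, read 2104, 2214, 2248, 2251 and 2107 against 1993, 1926, 1949, 1937 and 1977, an LFC of 0.16 ± 0.03 (Padj = 0.012). Psmb7, the trypsin-like site, did not pass (LFC 0.12, Padj = 0.057). Psmb3, a structural beta subunit, rose from 1658 ± 63 to 1928 ± 110 (LFC 0.22, Padj = 0.0095). In the alpha ring Psma6 (LFC 0.19, Padj = 0.0088) and Psma7 (LFC 0.19, Padj = 0.0058) rose. Psma7 read 2684, 2835, 2797, 2859 and 2596 in aged DH rats, each above the highest aged EH value of 2481.

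Of the ATPases 5 of 6 rose in aged DH rats. Psmc5 read 6989, 7294, 7086, 7616 and 7228 in the aged DH rats, and 6483, 6287, 6241, 6211 and 6208 in the aged EH rats. Its lowest DH value stood well clear of the highest EH value (LFC 0.20 ± 0.03, Padj = 0.0018). Psmc4 read 2660, 2763, 2741, 2759 and 2706 against 2510, 2498, 2450, 2244 and 2293 (LFC 0.19 ± 0.04, Padj = 0.0095), close to its LFC of 0.19 in adult rats. Psmc1, Psmc2 and Psmc3 rose by LFCs of 0.12, 0.15 and 0.17, and Psmc6 did not pass (LFC 0.08, Padj = 0.206).

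In the 19S base Psmd2, a scaffold subunit, rose (LFC 0.11, Padj = 0.042). In the lid 3 of 8 genes rose. Psmd8 read 2489, 2569, 2670, 2572 and 2532 against 2247, 2387, 2378, 2222 and 2099 (LFC 0.18 ± 0.04, Padj = 0.015). Psmd6 went from 2807 ± 114 to 3145 ± 73 (LFC 0.16, Padj = 0.012), and Psmd12 from 3053 ± 93 to 3308 ± 73 (LFC 0.12, Padj = 0.046). All 7 assembly factors had an LFC above 0 in aged rats and none passed; the highest was that of Psmg3 (LFC 0.17 ± 0.07, Padj = 0.173), a chaperone of alpha ring assembly.

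Of the 14 aged calls 9 held whichever rat was left out (Psma6, Psma7, Psmb3, Psmb5, Psmb6, Psmc4, Psmc5, Psmd6 and Psmd8). The calls of Psmd2, Psmc1 and Psmd12 held in 1, 2 and 3 of the 10 fits that left out 1 rat. They were also lost with edgeR, with equal library totals and with the RNA integrity covariate. DESeq2 on the recovered reads called 22 of the 48 genes, where it called 10.6% of all genes.

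**Figure D3:**
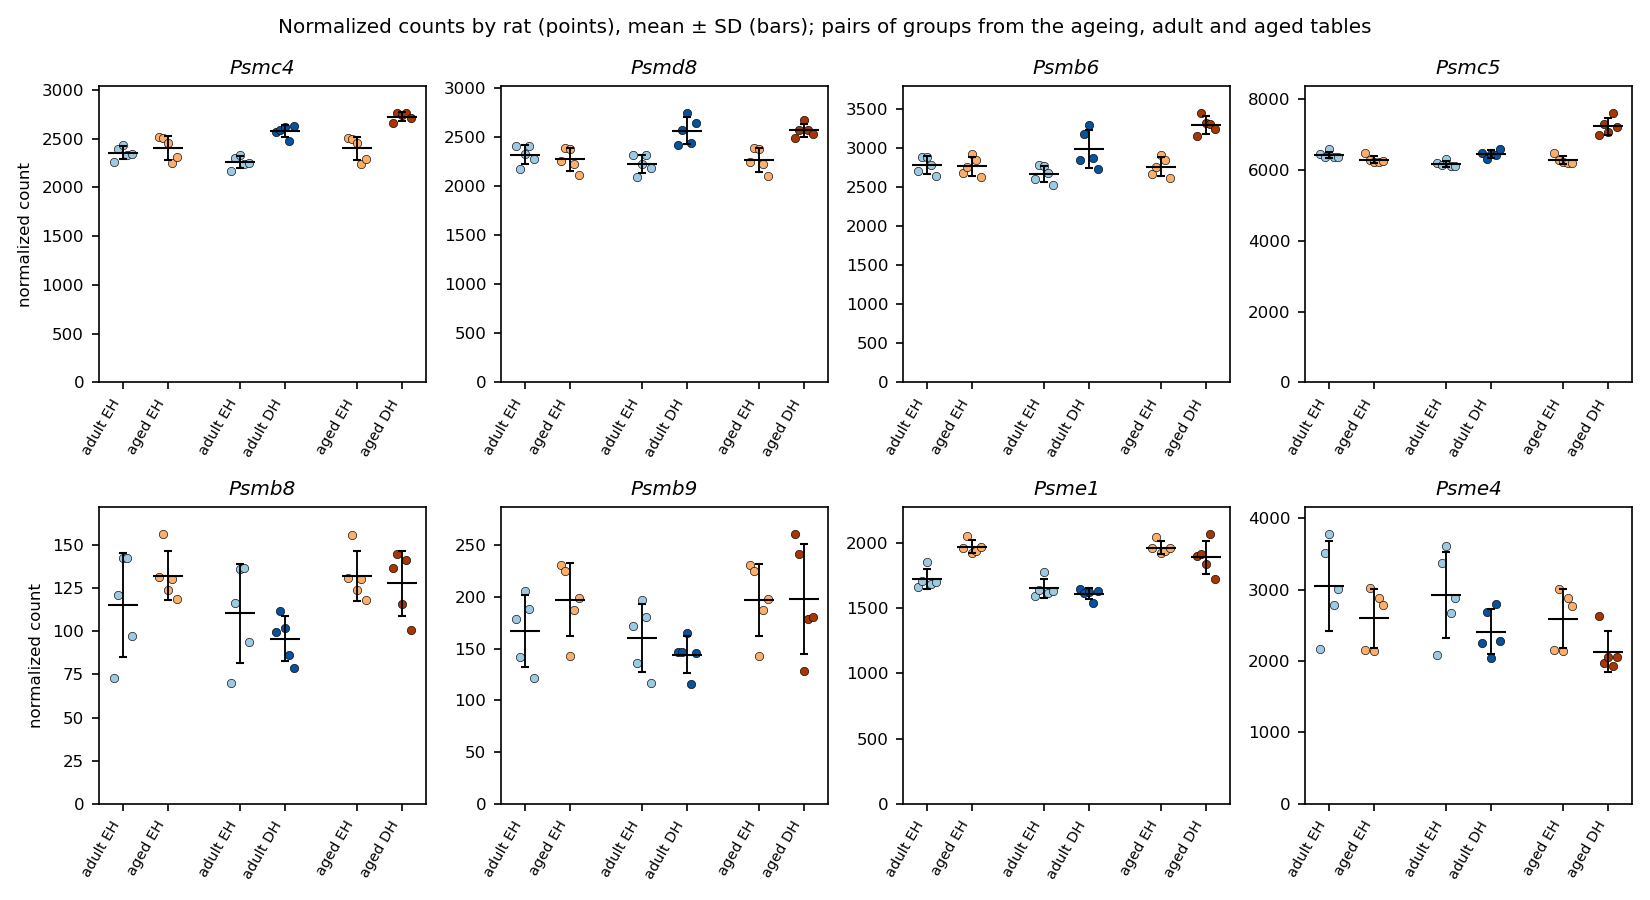
Normalized counts (y axis, from 0) of 8 genes in each rat, with mean ± SD; each panel holds adult EH and aged EH (ageing table), adult EH and adult DH, and aged EH and aged DH. For Psmc4 and Psmd8 the DH rats lie above the EH rats at both ages, for Psmc5 the aged DH rats lie between 6989 and 7616, above the aged EH rats at 6208 to 6483, and Psmb8 and Psmb9 overlap in every pair.

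Psmb3, Psmc2, Psmc3, Psmc4, Psmd6 and Psmd8 rose with DH at both ages. These 6 were 54.5% of the adult and 42.9% of the aged calls, and 19 genes were called at either age. In adult rats the call of Psmb3 held in 2 of the 10 fits that left out 1 rat. With the RNA integrity covariate Psmc4 alone of the 6 stayed called in adult rats. The LFC was above 0 at both ages in 36 of the 48 genes, below 0 at both in 8, and above 0 in aged rats alone in 4. The aged LFC was the higher of the pair in 36 of 48 genes, where 49.5% of all genes had a higher aged LFC. None of the 48 passed the test of the difference between the 2 LFCs (limma, all 20 rats), and 0% of 15326 genes did. An unadjusted p under 0.05 was found for 5 of the 48 members and for 1522 genes (9.93%), a similar share. Psmc5 had the lowest p of the members: its aged LFC exceeded its adult LFC by 0.14 (95% interval 0.065 to 0.213, limma Padj = 0.215), and DESeq2 called it, with 55 genes called in all, where edgeR called 0. Psma7 (0.12), Psmg1 (0.14), Psmd9 (0.16) and Psmb5 (0.10) were the other 4, each with the higher LFC with DH in aged rats. These are differences between LFCs, not between levels. In aged EH against adult EH rats all 5 had an LFC below 0, and none was called.

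The inducible genes of the immunoproteasome passed in no comparison, and their LFCs with DH were below 0. This held for all 3 in adult rats, except that 1 gene turned above 0 with the RNA integrity covariate and 1 without DH rat 4. Psmb8 read 99.6, 112, 102, 86.4 and 78.9 in adult DH rats and 70.2, 116, 136, 137 and 93.6 in adult EH rats. All DH values lay within the range of the EH rats (LFC -0.17 ± 0.18, Padj = 0.575). Psmb9 read 147, 147, 165, 116 and 146 against 171, 136, 197, 180.3 and 117 (LFC -0.14 ± 0.14, Padj = 0.594). Psmb10 stood at 323 ± 33 against 332 ± 19 (LFC -0.04, Padj = 0.774). In aged rats the LFCs with DH were -0.05, -0.01 and -0.01, each within its SE of 0, and these signs were not stable. All 3 were above 0 without aged DH rat 6, 2 of 3 without aged EH rat 1, aged EH rat 2 or aged DH rat 3 and with weighted rats, and 1 of 3 without aged DH rat 5 or aged EH rat 6, with edgeR, with DESeq2 and with the replicate block.

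With age all 3 inducible genes had an LFC above 0. Psmb8 read 131, 156, 124, 131 and 119 in aged EH rats and 73.2, 121, 142, 143 and 97.6 in adult EH rats (LFC 0.23 ± 0.17, Padj = 0.496). Psmb9 read 231, 225, 143, 188 and 199 against 179, 142, 205, 188 and 122 (LFC 0.24 ± 0.16, Padj = 0.431). Psmb10 read 458, 341, 340.3, 383 and 401 against 328, 361, 365, 354 and 322 (LFC 0.15 ± 0.08, Padj = 0.363). The groups overlapped for each.

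The inducible subunits were also set against the constitutive subunits they replace, as the log2 ratio within each rat, which does not depend on how a table was scaled. With age Psmb8/Psmb5 was higher by 0.29 (p = 0.190), Psmb9/Psmb6 by 0.25 (p = 0.214) and Psmb10/Psmb7 by 0.19 (p = 0.103; exact permutation tests, two-sided, n = 5 against 5). In adult DH rats the ratios differed from EH by -0.23 (exact p = 0.302), -0.30 (exact p = 0.111) and -0.12 (exact p = 0.143). In aged DH rats they differed by -0.21 (exact p = 0.151), -0.27 (exact p = 0.302) and -0.13 (exact p = 0.421). None of the 9 tests passed, with adjusted p (permutation, Benjamini-Hochberg) from 0.321 to 0.421, and 5 against 5 rats allow no exact p under 0.00794.

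**Figure D4:**
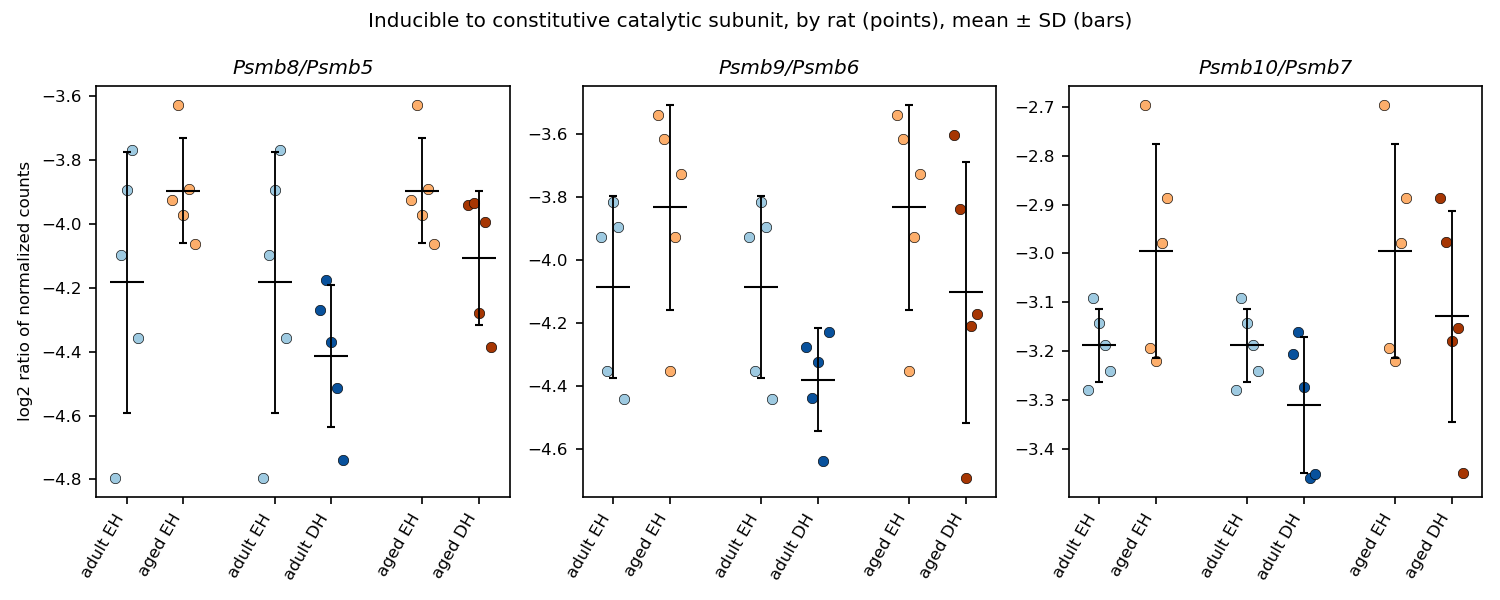
Log2 ratio of normalized counts (y axis) of Psmb8 to Psmb5, Psmb9 to Psmb6 and Psmb10 to Psmb7 in each rat, with mean ± SD, for adult EH and aged EH (ageing table), adult EH and adult DH, and aged EH and aged DH. In each panel the aged EH mean lies above the adult EH mean and the DH means below those of EH, with overlapping points throughout.

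In the comparison of aged EH with adult EH rats 1 of the 48 genes was called, Psme1 (2.08%; 5.99% of 15369 genes were called, 2.69% higher and 3.3% lower). Psme1, the alpha chain of the 11S activator, read 1961, 2051, 1924, 1937 and 1969 in aged EH rats and 1659, 1705, 1855, 1685 and 1703 in adult EH rats. No values overlapped, as in 2.95% of all genes, and the LFC was 0.19 ± 0.04 (Padj = 0.0090). The call held under every alternative and without any single rat. Higher calls among all genes were 45% of the total, and 28.8% with equal library totals. Psme2, the partner chain, stood at 1068 ± 33 against 1000.4 ± 58 (LFC 0.10, Padj = 0.271). Psmf1, which encodes an inhibitor of the proteasome, had an LFC of 0.11 (Padj = 0.169). The median LFC of the 48 genes was 0.0096, and the LFC was above 0 in 26 and below 0 in 22. An unadjusted p under 0.05 was found for 3 members and for 20.3% of all genes.

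Psme4 encodes PA200, an activator of the core that works without ATP. It had the lowest LFC of the 48 genes in all 3 comparisons, -0.22 with age, -0.26 with DH in adult and -0.28 with DH in aged rats, and passed in none (Padj = 0.417, 0.212 and 0.130). Adult EH rats ranged widely, at 2078, 3373, 3611, 2666 and 2888, and adult DH rats read 2248, 2681, 2041, 2801 and 2281. Aged DH rats read 2634, 1972, 2049, 1931 and 2057, against 2155, 3014, 2145, 2884 and 2764 in aged EH rats. Leaving out a single rat changed this at each age: without adult EH rat 1 the adult LFC was -0.38 (Padj = 0.033), and without aged DH rat 1 the aged LFC was -0.36 (Padj = 0.043). Psme3, the nuclear activator, stayed within an LFC of 0.06 of 0 in all 3 comparisons.

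Beside Psme1, genes of antigen presentation and interferon response had LFCs above 0 with age. All 9 genes tested of this list did (50.1% of all genes) and 5 rose (2.69% of all genes): B2m, the light chain of class I molecules (LFC 0.27, Padj = 0.0010), the peptide loading factor Tapbp (LFC 0.62, Padj = 0.0027), the peptide transporter Tap1 (LFC 0.70, Padj = 0.041) and the interferon factors Irf7 (LFC 0.61, Padj = 0.042) and Irf9 (LFC 0.23, Padj = 0.046). B2m and Tapbp held without any single rat, and Tap1, Irf7 and Irf9 did not. None of the list passed with DH at either age. In RefSeq gene order Tap1 lies between Psmb8 and Psmb9 on chromosome 20, and Psme1, Psme2 and Irf9 are close neighbours on chromosome 15. Markers of microglia moved the same way: 10 of 10 had an LFC above 0 with age, where 50.1% of all genes did. Of the 10, 3 rose (P2ry12, Cx3cr1 and Itgam), where 2.69% of all genes were called higher. The summed level of the microglia markers was 8804 to 10227 in aged EH and 7525 to 8649 in adult EH rats. Their part in the Psme1 result was not tested.

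Genes that serve the proteasome from outside it were followed as lists, to be read beside the 7.67% of all genes called higher in adult DH and 4.05% in aged DH rats. Of 5 genes of transcriptional control Nfe2l1 rose with DH at both ages. It read 7010, 7260, 7271, 7515 and 7227 in adult DH rats and 6638, 6452, 6525, 6310 and 6649 in adult EH rats (LFC 0.16 ± 0.03, Padj = 0.0021). In aged DH rats it read 8101, 7779, 8186, 7966 and 7749, against 7050, 7155, 7478, 7329 and 6962 in aged EH rats (LFC 0.15 ± 0.03, Padj = 0.012). Neither pair of groups overlapped. Nfe2l2, Ddi2, Ngly1 and Akirin2 passed in no comparison; Ddi2 encodes the protease that activates NRF1.

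Among all genes, 7.67% were called higher in adult DH rats and 4.05% in aged DH rats. Lower calls in adult DH rats were 4.99%. Of 7 tested proteasome-bound and further assembly factors 3 rose in adult DH rats: Ecpas, an adaptor of the 26S proteasome (LFC 0.17, Padj = 0.0014), the ubiquitin receptor Adrm1 (LFC 0.14, Padj = 0.019) and Txnl1 (LFC 0.11, Padj = 0.022). None of them passed in aged rats, where all 7 had an LFC above 0, nor with age. Of 12 genes that extract or carry ubiquitylated proteins 4 rose in adult DH rats. These were the segregase Vcp (LFC 0.11, Padj = 0.0086), its cofactor Nploc4 (LFC 0.14, Padj = 0.0075), the shuttle Ubqln1 (LFC 0.10, Padj = 0.029) and Zfand2a (LFC 0.29, Padj = 0.0069). Vcp (LFC 0.12, Padj = 0.027) and Nploc4 (LFC 0.15, Padj = 0.024) rose in aged DH rats too, and none of the 12 passed with age. Of 6 genes of ubiquitin and its activation, Uba1, the main E1 enzyme, rose at both ages (LFC 0.16, Padj = 0.00070, and LFC 0.13, Padj = 0.026), and Rps27a, which encodes ubiquitin fused to a ribosomal protein, fell in adult DH rats (LFC -0.15, Padj = 0.015). With the RNA integrity number as a covariate Nfe2l1, Ecpas, Uba1 and Rps27a stayed past the threshold in adult rats, and Adrm1, Txnl1, Vcp, Nploc4, Ubqln1 and Zfand2a did not. In aged rats the calls of Vcp, Nploc4 and Uba1 were lost without 1 or another single rat, and that of Nfe2l1 was not.

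Marker lists of cell types were read beside the DH comparisons. The neuronal marker Tubb3 rose at both ages (LFC 0.18, Padj = 0.0044, and LFC 0.15, Padj = 0.026), 1 of 3 measured neuronal markers, of which the other two had LFCs below 0. Avp rose in adult DH rats (LFC 0.48, Padj = 0.022) but did not pass in aged DH rats (LFC 0.21), and Oxt passed in neither. The oligodendrocyte marker Cnp fell in adult DH rats (LFC -0.27, Padj = 0.017), where Mbp, Mog and Mag had LFCs of -0.17, -0.19 and -0.16 and did not pass. In aged DH rats the LFCs of Cnp, Mbp, Mog and Mag were 0.06, 0.20, 0.10 and 0.12, and none passed. Astrocyte markers had LFCs above 0 in 0 of 5 cases in adult DH (median -0.08) and in 1 of 5 in aged DH rats (median -0.14). The microglia list had 3 of 10 above 0 with DH at each age (medians -0.07 and -0.08). Of the haemoglobin genes Hba-a1 fell in adult DH rats (LFC -0.81, Padj = 0.047) and Hbb in aged DH rats (LFC -0.84, Padj = 0.039). None of the microglia, astrocyte and endothelial markers passed with DH. With age the oligodendrocyte markers Mog and Cnp and the astrocyte markers Gja1 and Aqp4 fell (Mog LFC -0.36, Cnp LFC -0.34, Gja1 LFC -0.28, Aqp4 LFC -0.26), and no magnocellular, neuronal, endothelial or blood marker passed. The part of these cell types in the proteasome results was not tested.

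For 19 of the 48 genes RefSeq lists named pseudogenes or like copies, 52 in all, and reads may be split between a gene and its copies. Psmb3 had 10, Psma6 had 5, and Psmb6, Psmc4 and Psme1 had 3 each, so their counts are less certain than those of Psmc5 and Psmb5, for which none was listed.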

How the data were processed

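The samples were 20 poly(A) RNA-seq libraries, 1 per rat. By the study's methods and the submitters' processing notes, the authors made the libraries with a stranded kit, used STAR as aligner and featureCounts as read counter, and normalized with DESeq2; tool versions are not given in the processing notes. The deposited signal values are, per the file headers and the values, read counts that the authors divided by a size factor of each library, in 3 tables scaled separately (aged EH and adult EH; adult DH and adult EH; aged DH and aged EH). The tables also hold the authors' own fold changes and p-values, which were not used.

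Every value was a whole multiple of 1 step per library within 0.1 reads (100% of values above 0), so the whole reads were recovered for all 20 libraries and used in edgeR 4.0.16 and DESeq2 1.42.0 as alternatives. A few columns have a step so close to 1 that rounding and scaling are hard to tell apart there. The main test was limma 3.58.1 in R 4.3.3 (eBayes with trend, two-sided) on log2(normalized count + 1), for genes with a mean of at least 10, with a Benjamini-Hochberg adjusted p (all tested genes) under 0.05; LFCs are on that scale and understate changes of low genes. Each comparison was fitted on its own table, and the difference between the DH comparisons on all 20 rats. Ratios were compared with exact permutation tests over rats. P-values weigh a difference between groups against the spread between rats.

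The genes named were every gene that met the symbol rule, in classes by role, with those of 5 pathway lists and 7 marker lists that passed; Pomp and Tap2 stayed under the minimum mean, and Paaf1, Snap25 and Pecam1 were not matched by symbol and not analysed here. One further marker is not reported here. The genes and lists were chosen with earlier results of these data known. The scripts were tested on simulated data. Promoters were searched in 250 bases. Alternatives were another pseudocount, minimum, scaling and tool, weights, a covariate, a replicate block and leaving out each rat. Levels were not compared between genes, since lengths were not used here.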

Additional observations from a re-analysis of the deposited data

Results flagged for a closer look

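In 16 cases, each a gene in a group of 5 rats, a single rat stood apart from the other 4 by Dixon's test. These were 6.35% of the cases tested, and chance gives about 1 in 20. Normalized counts are given.

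Psme1, the 11S activator chain that was higher with age, had a rat apart in 3 groups: adult EH rat 4 at 1776 (others up to 1638), adult DH rat 4 at 1542 (others from 1615) and aged EH rat 2 at 2048 (others up to 1958). Psme4 stood at 2634 in aged DH rat 1 and at 2057 or less in the others. Psma2 stood at 2393 in adult EH rat 2, Psmb3 at 1558 in adult EH rat 6 and Psme3 at 1994 in aged EH rat 4.

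Among genes called in a DH comparison, Psmc5 was at 6483 in aged EH rat 1, nearer to the DH rats than the others were. Aged DH rat 3 stood apart for Psmc3 at 4262 (high), for Psmd12 at 3180 (low) and for Nploc4 at 2438 (high). Psmd5 was at 1221 in aged DH rat 2. Txnl1 was at 3236 in adult EH rat 6.

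Tap1 was at 310 in adult EH rat 1, against 139 to 171 in the other 4. Irf9 was at 535 in adult EH rat 6 and at 581 in adult DH rat 2.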

How the results depend on the processing

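No call of a member turned its direction under any alternative tried. In adult DH, 6 members were called with equal library totals and 1, Psmc4, with the RNA integrity covariate, against 11. Calls among all genes were 2051 with equal library totals and 1005 with that covariate, against 1934. The other tools, minima, pseudocounts, weights and scalings gave 11 to 15 members. Leaving out 1 rat gave 7 to 11 calls, the 7 without adult DH rat 3. In aged DH, DESeq2 called 22 against 14, the other settings apart from the replicate block gave 11 to 19, and leaving out 1 rat gave 9 to 16, the 9 without aged EH rat 5. In ageing the call of Psme1 held throughout, and the median LFC of the members was -0.0202 with equal library totals. DESeq2 called 1 member, Psmc5, for the difference between ages; size factors over all 20 libraries, an alternative chosen after seeing the data, gave 0. The replicate numbers were also tried as a block: this pairing left 1 call in adult DH (Psmc4) and 6 in aged DH, 1 in ageing and 0 in the difference, while all calls fell from 1934 to 987, from 1119 to 653 and from 921 to 824. Deviations of same-numbered rats correlated weakly and with mixed sign (r from -0.0825 to 0.162), and the numbers were read as names of rats, not as pairs. So few correlations cannot settle whether the rats were paired. With equal totals the share of higher calls among all genes was 43.4% in adult DH (60.6% otherwise), 28.8% in ageing (45%) and 47.3% in aged DH (55.5%). The cause of these changes was not tested. The number of rats, 5 per group, limits what small LFCs can show.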

Other observations

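The 3 genes whose symbols fit but whose means stayed under 10 were Psma8, a testis variant of Psma7 (mean 0.41 to 1.27 normalized counts over the 3 tables), Psmb11, the thymus beta subunit (3.41 to 4.24), and the pseudogene Psme1-ps1 (1.69 to 1.79). They entered no comparison.

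Psmc3ip and Psme3ip1, which carry proteasome-like symbols but encode no subunit, passed in no comparison. Their LFCs with DH were -0.04 and -0.07 in adult and -0.07 and -0.01 in aged rats.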
